A study of Mus musculus with 6 samples.

Results

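The hypoxia-inducible factors (HIF), the proteins that sense oxygen on their behalf and a set of their target genes were followed in endothelial cells of the mouse retina with and without a recombinase directed at Rnf20, an E3 ubiquitin ligase for histone H2B. The members were the 10 genes Hif1a, Epas1, Arnt, Vhl, Egln1, Egln3, Bnip3, Ankrd37, Ndrg1 and Ddit4, chosen by symbol from the 19124 genes of the deposited table. For each gene the transcript entry with the longest length was used, with ties broken by the higher count sum. RNA was measured in 6 libraries, each from a different C57BL/6 pup at postnatal day 7. The 3 Ctrl pups had the genotype Pdgf{beta}CreERT2neg Rnf20p/p and the 3 KO pups Pdgf{beta}CreERT2pos Rnf20p/p, so that Rnf20p/p was common to both groups and only the KO pups carried the recombinase. The labels do not spell out the p allele or which part of Rnf20 it removes. All pups received 75 µg of 4-hydroxytamoxifen a day from day 1 to day 4. CreERT2 is a recombinase that acts once this drug is present, and the Pdgfb promoter drives it mainly in endothelium. Effects of the recombinase and of the loss of Rnf20 cannot be told apart, because no Cre-positive pups without the Rnf20 allele are among the samples. Dissociated retinal cells were sorted for CD31, which endothelial cells carry on their surface, as do platelets and some leukocytes.

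HIF is a transcription factor made of an oxygen-regulated alpha subunit and the stable partner ARNT. In oxygen, prolyl hydroxylases of the EGLN family mark the alpha subunit, the VHL protein binds the marked form, and the proteasome destroys it, so that much of HIF control acts on protein and not on RNA. In the growing retina, hypoxic neurons and astrocytes release VEGF ahead of the vessel front, and endothelial cells use HIF-1 alpha (Hif1a) and HIF-2 alpha (Epas1) themselves. RNA levels as measured here show how much transcript each gene had and say nothing of hydroxylation or HIF protein.

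HIF binds short DNA cores, and the bases upstream of 5 of the genes are shown because these genes are known HIF targets or, for Hif1a, the only member that passed the test. The sequences are from RefSeq on GRCm38.p6, the assembly of mm10, and run 5′ to 3′ toward the transcription start site. Capitals mark each ACGTG or GCGTG, searched on both strands. A palindromic core is matched once on each strand.
Hif1a, chr12:73907617-73907866, plus strand, the 250 bases before the start site: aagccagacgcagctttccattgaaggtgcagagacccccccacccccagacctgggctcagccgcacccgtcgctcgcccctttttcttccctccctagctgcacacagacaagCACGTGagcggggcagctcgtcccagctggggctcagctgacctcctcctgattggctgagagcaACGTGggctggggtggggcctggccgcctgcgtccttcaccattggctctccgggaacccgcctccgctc
Bnip3, chr7:138909507-138909756, minus strand, the 250 bases before the start site: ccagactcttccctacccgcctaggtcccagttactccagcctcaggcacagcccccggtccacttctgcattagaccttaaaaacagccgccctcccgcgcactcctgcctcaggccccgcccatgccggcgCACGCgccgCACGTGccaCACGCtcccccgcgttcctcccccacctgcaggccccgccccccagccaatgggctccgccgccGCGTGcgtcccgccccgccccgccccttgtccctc
Ankrd37, chr8:45999851-46000100, minus strand, the 250 bases before the start site: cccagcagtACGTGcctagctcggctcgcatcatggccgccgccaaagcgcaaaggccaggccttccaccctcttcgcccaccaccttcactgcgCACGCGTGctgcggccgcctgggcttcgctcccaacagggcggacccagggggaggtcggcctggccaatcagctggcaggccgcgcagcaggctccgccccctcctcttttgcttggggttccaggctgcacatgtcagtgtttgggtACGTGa
Egln3, chr12:54203875-54204124, minus strand, the 250 bases before the start site: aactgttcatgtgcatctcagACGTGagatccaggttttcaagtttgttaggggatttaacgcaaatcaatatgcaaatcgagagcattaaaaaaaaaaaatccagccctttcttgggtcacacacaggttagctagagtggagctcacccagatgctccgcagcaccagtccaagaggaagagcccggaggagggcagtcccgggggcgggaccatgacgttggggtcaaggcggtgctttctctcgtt
Ddit4, chr10:59951835-59952020, minus strand, bases 250 to 65 before the start site: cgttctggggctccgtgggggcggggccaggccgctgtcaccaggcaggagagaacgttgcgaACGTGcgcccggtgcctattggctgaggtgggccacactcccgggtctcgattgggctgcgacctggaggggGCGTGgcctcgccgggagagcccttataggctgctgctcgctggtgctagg
The Hif1a window precedes the start site listed in the promoter table, which lies inside the span of the longest Hif1a entry. The promoter table held an entry for 8 of the 10 genes, all but Epas1 and Ndrg1. Of these 8, 7 had at least 1 core within 250 bases of the start site. Among all 32851 promoters of the table, 38.6% had either core and 16.7% had 2 or more matches. These shares were not matched for GC content, which ran from 50.8% (Egln3) to 86.0% (Egln1) in the 8 windows. Bnip3 had 5 matches, Ankrd37 had 4, Hif1a had 3, Egln1 and Ddit4 had 2 each, and Arnt and Egln3 had 1 each. In Bnip3, 4 of the 5 matches lay between 117 and 95 bases upstream of the start site. The Vhl window held neither core. A match is a string of letters and not a shown binding site.

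**Figure D1:**
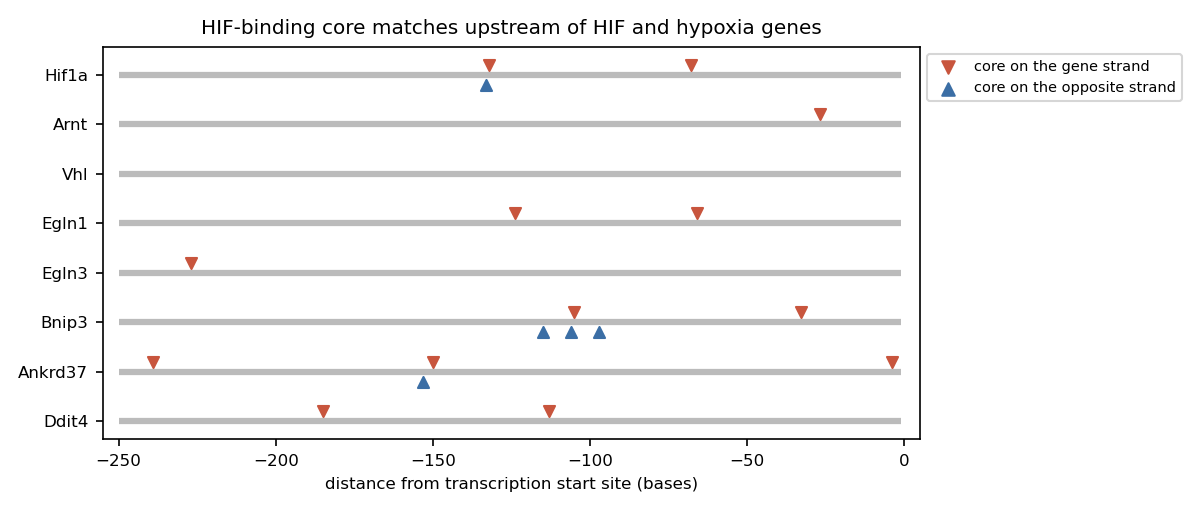
Positions of the 2 HIF-binding cores in the 250 bases upstream of the transcription start site (horizontal axis, bases) of the 8 genes with a promoter entry (rows). Downward triangles are cores on the gene's own strand and upward triangles are cores on the opposite strand. The cluster in Bnip3 lies between 117 and 95 bases upstream, and the Vhl row is empty.

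The question for these genes was whether their transcripts differed between KO and Ctrl. All 10 passed the filter on low counts and entered edgeR's quasi-likelihood F-test, and Benjamini-Hochberg adjustment ran over all 16217 tested genes. Among the 10, Hif1a fell, and the other 9 did not pass at an adjusted p of 0.05. That is 1 of 10, where 10.3% of all tested genes passed (4.44% lower). No member rose by edgeR (0 of 10, where 5.85% of all genes rose). At an unadjusted p below 0.05, 3 members had a higher and 2 a lower estimate in KO (30.5% of all genes were below 0.05). DESeq2 called 2 members higher and 2 lower (23.4% of its genes were called), and limma-voom called 0 higher and 1 lower (11.8%). For 5 members the CPM ranges of Ctrl and KO were apart, against 37.9% of all genes: Hif1a, Vhl and Bnip3 were lower in each KO library (3 of 10, beside 18.9% of all genes), and Epas1 and Ddit4 were higher (2 of 10, beside 19.0%). CPM is the count relative to the TMM-scaled library total, in the usual unit, and TMM assumes that most genes do not differ.

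**Figure D2:**
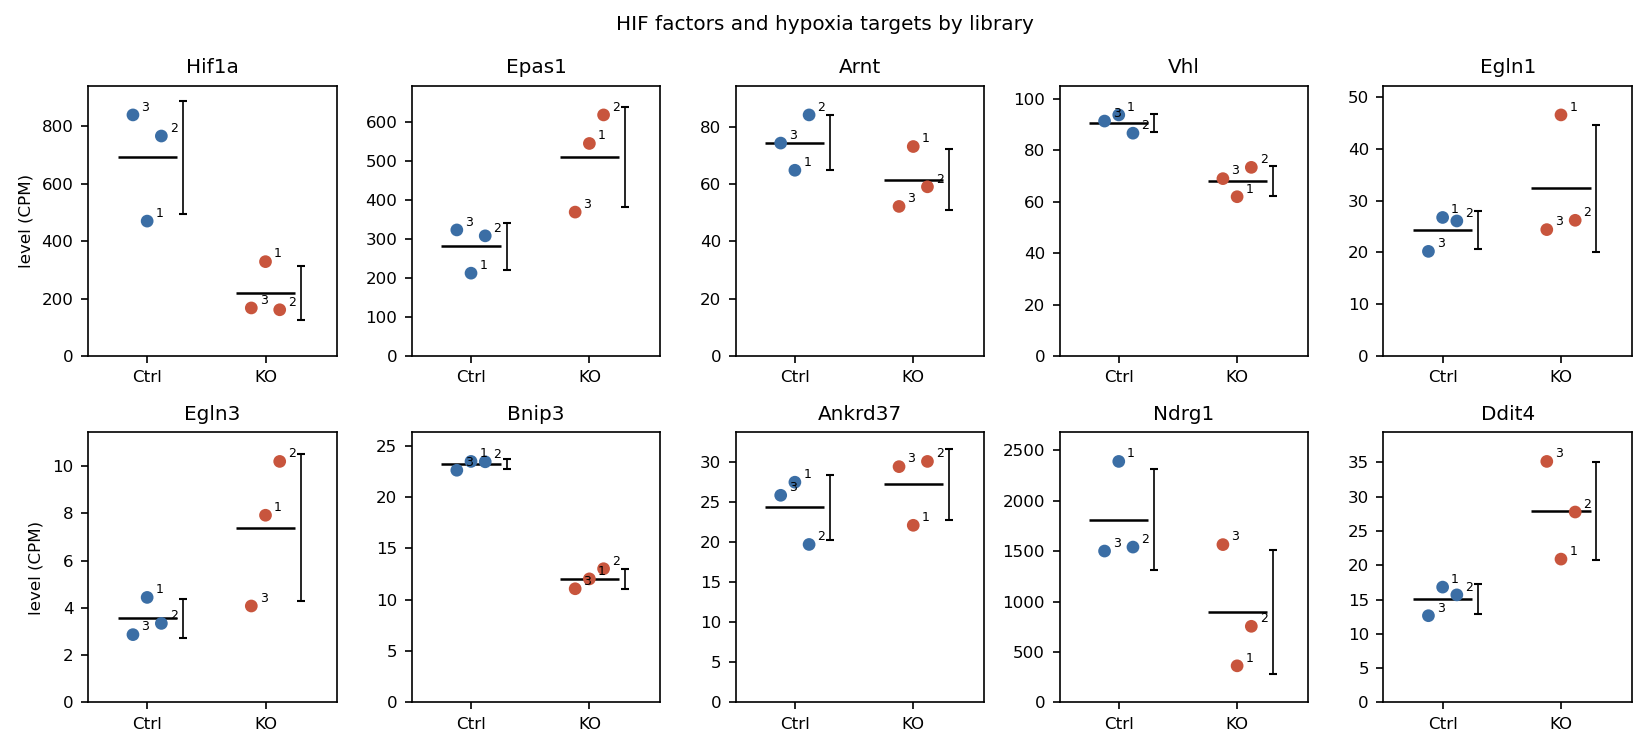
Level of each of the 10 genes (vertical axis, CPM, each panel from 0) in the 3 Ctrl (blue) and 3 KO (red) libraries, with the replicate number beside each point. Horizontal lines are group means and the bars beside them are SD. Hif1a lies between 470 and 839 CPM in Ctrl and between 161 and 328 CPM in KO, while Epas1 lies between 212 and 323 CPM in Ctrl and between 368 and 617 CPM in KO.

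The estimates of the 2 main alpha subunits lay on opposite sides of 0, and that of Hif1a passed the test. Hif1a, which encodes HIF-1 alpha (NM_001313920, chromosome 12, 73901324 to 73947554, GRCm38.p6), stood at 470, 766 and 839 CPM in Ctrl 1, 2 and 3 and at 328, 161 and 167 CPM in KO 1, 2 and 3. Each KO library lay below each Ctrl library. Group means were 692 ± 196 CPM in Ctrl against 219 ± 95.0 CPM in KO (SD, n = 3 each), 3.16-fold lower in KO. The log2 fold change was −1.66 (SE 0.376) and passed the quasi-likelihood F-test of edgeR (Benjamini-Hochberg adjusted p = 0.0345). Its 3 transcript entries hold nearly the same reads, with 62459 to 62475 counts over the 6 libraries, so isoforms cannot be separated. With offsets for transcript GC content, which is 41.3% for Hif1a, the log2 fold change was −1.09 and still passed (edgeR adjusted p = 0.0199). Without KO 1 it was −2.01 and passed (edgeR adjusted p = 0.00623), in a fit that called 4927 genes. The fits without Ctrl 1, Ctrl 2, Ctrl 3 or KO 2 called 0 genes of any kind, and the fit without KO 3 called 866. Leaving out Ctrl 1, Ctrl 2, Ctrl 3, KO 2 or KO 3, one at a time, gave −1.88, −1.58, −1.50, −1.47 and −1.47, none of which passed (edgeR adjusted p = 0.0801, 0.135, 0.130, 0.125 and 0.0781, in a range of 0.000647, by DESeq2, to 0.145 over 14 alternatives of all tools).

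Epas1, which encodes HIF-2 alpha (NM_010137, chromosome 17, 86753864 to 86833410), stood at 212, 308 and 323 CPM in Ctrl 1, 2 and 3 and at 544, 617 and 368 CPM in KO 1, 2 and 3. Each KO library lay above each Ctrl library, with KO 3 nearest to Ctrl. Its mean was 281 ± 60.0 CPM in Ctrl against 510 ± 128 CPM in KO (SD, n = 3 each), a ratio of 1.82. The log2 fold change of 0.86 (SE 0.293) missed the threshold of the quasi-likelihood F-test (edgeR, Benjamini-Hochberg adjusted p = 0.0929), and DESeq2 called it (0.90, adjusted p = 0.0378, range 0.0378 to 0.473 over 14 alternatives of all tools). The third alpha subunit, Hif3a, was low, at 3.45 ± 3.62 CPM in Ctrl against 1.18 ± 0.196 CPM in KO, and its log2 fold change of −1.55 did not pass (edgeR adjusted p = 0.209). Its Ctrl mean rested on Ctrl 1, at 7.62 CPM.

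The ratio of counts of the 2 main alpha subunits can be read within a library, where scaling between libraries plays no part. Such a ratio is not free of cell makeup or of transcript GC content (41.3% for Hif1a and 52.5% for Epas1). Their part in it was not tested. The log2 ratio of Epas1 to Hif1a counts stood at −1.15, −1.32 and −1.38 in Ctrl 1, 2 and 3 and at 0.73, 1.94 and 1.14 in KO 1, 2 and 3. Hif1a thus had more counts than Epas1 in every Ctrl library and fewer in every KO library. The genes differ in length, so only the change of the ratio is of use. That change was 2.55 log2 units, or 5.86-fold, with p = 0.1 by a two-sided exact permutation test over 3 against 3 libraries, the smallest p that this design allows.

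Transcripts of several cell types were in the sorted cells, and some of them moved with genotype. The libraries held 14581701 to 30692948 counts. The summed level of 15 endothelial markers was 2375 to 3594 CPM in Ctrl and 6387 to 8609 CPM in KO, and 9 of the 15 rose. The summed level of 16 photoreceptor markers was 21011 to 36516 CPM in Ctrl and 5275 to 25120 CPM in KO, and 3 of the 16 fell. Of 14 inner retinal neuron markers 3 fell (2704 to 3156 CPM in Ctrl and 938 to 1727 CPM in KO). Of 12 glial markers 3 rose and 7 had an estimate above 0 (2436 to 3089 and 2930 to 17403 CPM). Apoe alone made up 14882 CPM of the glial sum in KO 2, beside 445 CPM in KO 1. Apoe did not pass (edgeR adjusted p = 0.159). Of 12 mural cell markers 2 rose (222 to 903 and 551 to 1143 CPM). Of 6 tested erythroid markers, which include globin copies that share reads, 5 rose (61.7 to 98.2 and 460 to 685 CPM), and of 4 tested platelet markers 1 rose (13.6 to 17.5 and 26 to 50.0 CPM). Microglial markers spread from 251 to 1502 CPM in Ctrl and from 248 CPM in KO 1 to 12878 CPM in KO 2, and 0 of 14 passed edgeR's test (0 also by DESeq2, by limma-voom and before adjustment at p below 0.05). No listed marker found in the table was at 0 in all libraries. In such bulk samples, fewer cells of a type and less RNA per cell cannot be told apart.

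**Figure D3:**
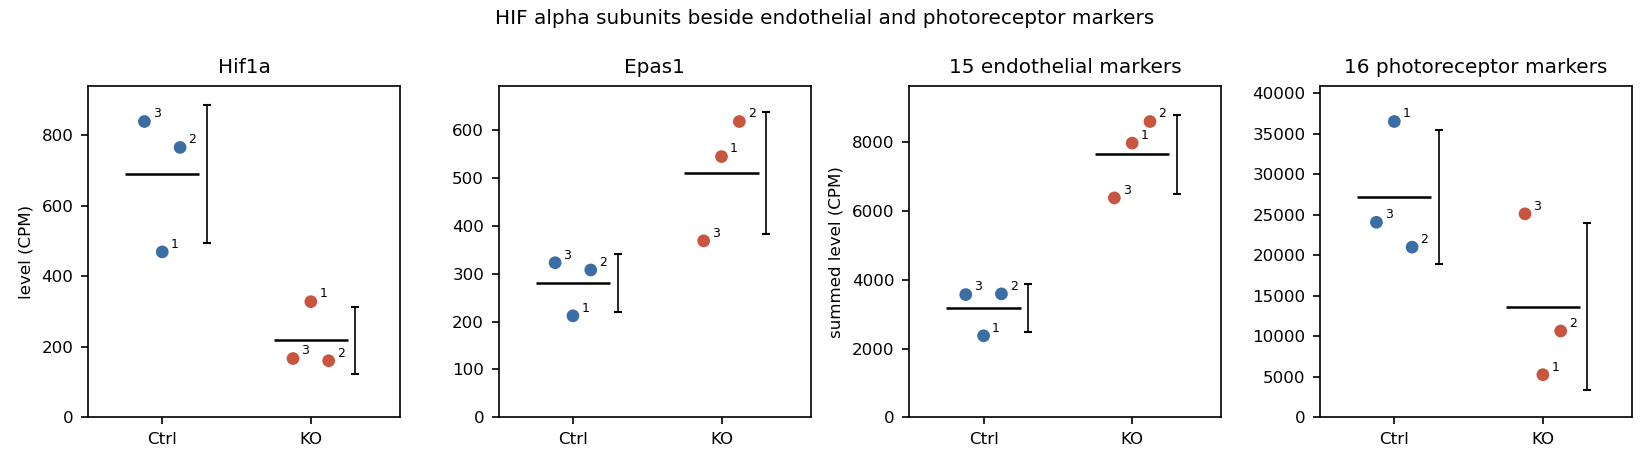
Hif1a and Epas1 (CPM) beside the summed level (CPM) of 15 endothelial and 16 photoreceptor markers in each library, with replicate numbers, group means (lines) and SD (bars). Epas1 and the endothelial sum have the same order within each group except for Ctrl 2 and Ctrl 3, and KO 1 has the lowest photoreceptor sum, 5275 CPM, and the highest Hif1a level of the KO group, 328 CPM.

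Beside these sums, Hif1a and Epas1 behaved differently. Relative to the mean log2 level of the endothelial markers, Epas1 was at 0.75, 0.65 and 0.71 in Ctrl 1, 2 and 3 and at 0.28, 0.55 and 0.27 in KO 1, 2 and 3, so that it was lower in each KO library by this measure, by 0.34 log2 units on average (two-sided exact permutation p = 0.1, the smallest possible). Its direction therefore turned when libraries were scaled to equal endothelial markers. Under TMM scaling the markers themselves had log2 fold changes from 0.47 (Ptprb) to 1.67 (Egfl7). The 0.86 of Epas1 lay within that range, so it was lower against their mean and not against each marker. Hif1a relative to the same markers was at 1.90, 1.97 and 2.09 in Ctrl 1, 2 and 3 and at −0.45, −1.39 and −0.87 in KO 1, 2 and 3, and was lower by either scaling. Scaling to these markers shifts all genes downward in KO, and their median log2 fold change moved from 0.03 to −1.18. That Hif1a stayed below 0 is therefore no separate test. Across the 6 libraries Hif1a did not keep the order of the photoreceptor sum: Ctrl 1 had the highest photoreceptor sum and the lowest Hif1a of the Ctrl group, and KO 3, at 25120 CPM of photoreceptor markers, had 167 CPM of Hif1a. The inner retinal neuron sum was apart between the groups as Hif1a was, at 3156, 2750 and 2704 CPM in Ctrl 1, 2 and 3 and at 961, 938 and 1727 CPM in KO 1, 2 and 3. The part of cell makeup in either result was not tested.

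**Figure D4:**
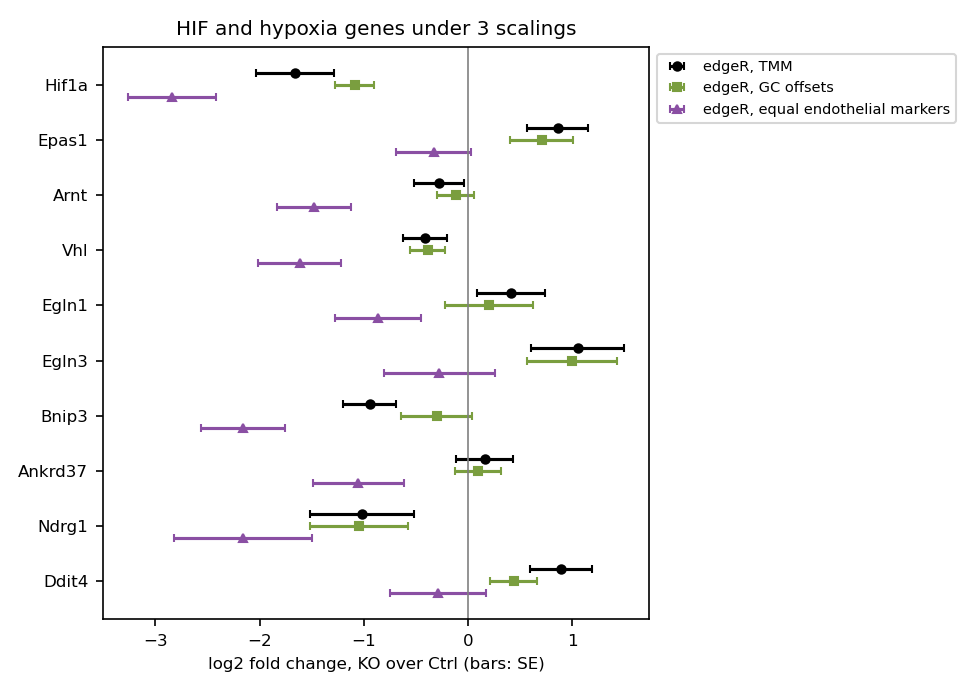
Log2 fold change (KO over Ctrl) and SE (horizontal axis) for the 10 genes (rows) under TMM scaling (circles), TMM with offsets for transcript GC content (squares) and scaling to equal endothelial markers (triangles), all by edgeR. Hif1a stays below 0 under each, at −1.66, −1.09 and −2.84, while Epas1, Egln1, Egln3, Ankrd37 and Ddit4 lie above 0 under the first pair and below 0 under the third. The third scaling moves the median of all genes from 0.03 to −1.18.

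Transcripts of Arnt and Vhl, both genes of the core machinery, had estimates nearer to 0 under TMM scaling. Arnt, which encodes the beta subunit ARNT that both alpha subunits need to bind DNA (NM_009709, chromosome 3, 95434367 to 95497240), stood at 64.8, 84.1 and 74.2 CPM in Ctrl 1, 2 and 3 and at 73.0, 59.0 and 52.1 CPM in KO 1, 2 and 3. The groups overlapped, and the log2 fold change of −0.28 (SE 0.239) did not pass (edgeR adjusted p = 0.468). Vhl, the substrate receptor that recognises hydroxylated alpha subunits (NM_009507, chromosome 6, 113623994 to 113631634), stood at 93.8, 86.7 and 91.4 CPM in Ctrl and at 61.9, 73.4 and 69.0 CPM in KO. Its groups did not overlap and were tight, at 90.6 ± 3.62 and 68.1 ± 5.76 CPM (SD, n = 3 each). The log2 fold change of −0.41 (SE 0.212) missed the threshold of the quasi-likelihood F-test (edgeR, Benjamini-Hochberg adjusted p = 0.225).

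The prolyl hydroxylases did not pass the test in either direction. Egln1 encodes PHD2, the main oxygen sensor of most cells (NM_053207, chromosome 8, 124908587 to 124949254). It stood at 26.8, 26.1 and 20.2 CPM in Ctrl 1, 2 and 3 and at 46.6, 26.2 and 24.4 CPM in KO 1, 2 and 3. KO 1 alone stood above the Ctrl range by a wide margin, and the log2 fold change was 0.41 with all libraries and 0.13 without KO 1 (edgeR adjusted p = 0.427 and 0.732). Egln3 encodes PHD3, itself induced by HIF (NM_028133, chromosome 12, 54178981 to 54203874), and was the member with the fewest reads, 44 to 256 counts per library. It stood at 4.44, 3.34 and 2.87 CPM in Ctrl and at 7.92, 10.2 and 4.08 CPM in KO, with KO 3 inside the Ctrl range. The mean ratio was 2.08 and the log2 fold change 1.05 (SE 0.447), which did not pass (edgeR adjusted p = 0.157). Egln2, the remaining paralog, which encodes PHD1, was at 107 ± 13.3 CPM in Ctrl against 191 ± 72.7 CPM in KO (log2 fold change 0.83, edgeR adjusted p = 0.140). Its KO libraries were uneven, with 107 CPM in KO 1 and 231 and 234 CPM in KO 2 and 3. Without KO 1, Egln2 had a log2 fold change of 1.18 and passed (edgeR adjusted p = 0.00770, range 0.00770 to 0.716 over 14 alternatives of all tools), and with GC offsets it was at 0.11.

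None of the 4 target genes that follow passed edgeR's test under TMM scaling. With libraries scaled to equal endothelial markers the estimates of all 4 were below 0, at −2.16 for Bnip3, −0.29 for Ddit4, −1.05 for Ankrd37 and −2.16 for Ndrg1, and those of Bnip3 and Ndrg1 passed (edgeR adjusted p = 0.00416 and 0.0238). On that scale the median of all 16217 genes was −1.18, and 6837 of them passed, 1.11% of these higher. Ddit4 and Ankrd37 were thus less negative than the median gene. Bnip3, a receptor that ties mitochondria to the autophagy machinery (NM_009760, chromosome 7, 138890836 to 138909506), stood at 23.5, 23.4 and 22.6 CPM in Ctrl 1, 2 and 3 and at 12, 13.0 and 11.1 CPM in KO 1, 2 and 3. These groups were the tightest of the 10 genes relative to their means, and the KO mean of 12 ± 0.976 CPM was 1.92-fold below the Ctrl mean of 23.2 ± 0.486 CPM (SD, n = 3 each). The log2 fold change of −0.94 (SE 0.257) missed the threshold of the quasi-likelihood F-test (edgeR, Benjamini-Hochberg adjusted p = 0.0545). DESeq2 called it lower (−0.91, adjusted p = 0.00933), as did edgeR without KO 1 (−0.87, adjusted p = 0.0360, range 0.00416 to 0.556 over 14 alternatives of all tools). With GC offsets it was −0.30 (edgeR adjusted p = 0.556), and the transcript GC content of Bnip3 is 41.6%, close to that of Hif1a.

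Ddit4 encodes REDD1, an inhibitor of mTORC1 that responds to hypoxia, glucocorticoids and other stress (NM_029083, chromosome 10, 59949675 to 59951770). It stood at 16.8, 15.7 and 12.6 CPM in Ctrl 1, 2 and 3 and at 20.9, 27.8 and 35.1 CPM in KO 1, 2 and 3. Each KO library lay above each Ctrl library, and the mean ratio was 1.86. The log2 fold change of 0.89 (SE 0.30) missed the threshold of the quasi-likelihood F-test (edgeR, Benjamini-Hochberg adjusted p = 0.0903). DESeq2 called it (0.93, adjusted p = 0.0305), and so did edgeR without KO 1 (1.13, adjusted p = 0.0155, range 0.0155 to 0.630 over 14 alternatives of all tools). With GC offsets it was 0.44 (edgeR adjusted p = 0.205), and the transcript GC content is 57.9%.

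Ankrd37, a small ankyrin repeat protein widely used as a marker of HIF-1 activity (NM_001039562, chromosome 8, 45996908 to 46000414), stood at 27.4, 19.7 and 25.8 CPM in Ctrl 1, 2 and 3 and at 22.1, 30.0 and 29.4 CPM in KO 1, 2 and 3. The groups overlapped, and the log2 fold change of 0.16 (SE 0.274) did not pass (edgeR adjusted p = 0.727). It is the only one of the 10 that overlaps another gene of the table, Ufsp2, which held 14513 counts against 3850 for Ankrd37, so its count is uncertain.

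Ndrg1, a stress-responsive gene needed by myelinating Schwann cells (NM_008681, chromosome 15, 66929318 to 66969641), had the most reads of the members, 9252 to 69890 counts per library. It stood at 2388, 1539 and 1500 CPM in Ctrl 1, 2 and 3 and at 363, 754 and 1564 CPM in KO 1, 2 and 3. KO 3 lay inside the Ctrl range, so the groups overlapped, and the log2 fold change of −1.02 (SE 0.501) did not pass (edgeR adjusted p = 0.208). It was −1.63 without KO 3 and −0.58 without KO 1 (edgeR adjusted p = 0.0708 and 0.265). The photoreceptor sum moved with it: Ctrl 1 was highest, KO 3 next, Ctrl 2 and 3 close together below, then KO 2 and last KO 1, for Ndrg1 and for the sum of 36516, 25120, 21011, 24079, 10663 and 5275 CPM. The part of photoreceptor RNA in the Ndrg1 values was not tested. Of its paralogs, Ndrg3 was at 514 ± 136 CPM in Ctrl against 206 ± 91.6 CPM in KO (log2 fold change −1.32, edgeR adjusted p = 0.0595), Ndrg4 at 44.1 ± 9.14 and 25.9 ± 9.16 CPM (−0.77, edgeR adjusted p = 0.173) and Ndrg2 at 147 ± 16.3 and 172 ± 16.3 CPM (0.23, edgeR adjusted p = 0.510). By edgeR 0 of the 4 NDRG genes passed (10.3% of all genes did), while 1 had an unadjusted p below 0.05 (30.5% of all genes). DESeq2 and limma-voom each called 1, Ndrg3, lower (23.4% and 11.8% of all genes were called). Ndrg3 also passed without KO 1 (−0.99, edgeR adjusted p = 0.0471, range 0.00765 to 0.20 over 14 alternatives of all tools). Ndrg4 was at −0.43 without KO 1, and it passed with GC offsets (−1.03, edgeR adjusted p = 0.0332) and with libraries scaled to equal endothelial markers (−1.97, edgeR adjusted p = 0.0116, range 0.0116 to 0.386 over 14 alternatives of all tools).

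In the authors' deposited table, made with DESeq2 on all transcript entries, the adjusted p-value was below 0.05 for Hif1a (log2 fold change −1.58, adjusted p = 0.000921), Bnip3 (−0.85, adjusted p = 0.0174), Ddit4 (0.98, adjusted p = 0.0233) and Epas1 (0.96, adjusted p = 0.0270). In the authors' deposited table the remaining 6 members were not, with adjusted p from 0.0720 for Egln3 to 0.684 for Arnt, and 22.2% of its 30664 entries with an adjusted p-value were below 0.05.

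Around the members, 17 further genes of HIF subunits and oxygen sensing were followed, and 2 of them fell, 0 rose and 15 did not pass edgeR's test, a share near the 10.3% of all genes called. At an unadjusted p below 0.05, 2 were higher and 3 lower, beside 30.5% of all genes. DESeq2 called 0 higher and 3 lower, and limma-voom 0 and 2, beside 23.4% and 11.8% of all genes called by these tools. Hif1an, which encodes FIH, the asparaginyl hydroxylase that blocks coactivator binding to HIF alpha in oxygen, fell from 115 ± 30.0 to 52.2 ± 8.15 CPM (log2 fold change −1.14, SE 0.272, edgeR adjusted p = 0.0396). Usp33, a deubiquitinase, fell from 207 ± 14.0 to 77.0 ± 32.2 CPM (log2 fold change −1.43, SE 0.318, edgeR adjusted p = 0.0329). Both passed without KO 1 and with no other library left out, where their log2 fold changes lay between −1.29 and −0.91 for Hif1an and between −1.76 and −1.24 for Usp33 (adjusted p from 0.00427 to 0.158 and, with the lowest by DESeq2, from 0.00100 to 0.135 over 14 alternatives of all tools). Without KO 1 edgeR called 4927 genes in all, and without Ctrl 1, Ctrl 2, Ctrl 3 or KO 2 it called 0. The median log2 fold change of the 17 was −0.18, beside 0.03 over all tested genes.

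Other targets of HIF were found on both sides of 0. Of the 45 listed genes reported here 43 were tested, and 2 rose, 2 fell and 39 did not pass edgeR's test (10.3% of all genes passed), with a median log2 fold change of 0.05 beside 0.03 over all tested genes. Before adjustment, 10 were higher and 5 lower at p below 0.05, beside 30.5% of all genes. DESeq2 called 9 higher and 3 lower, and limma-voom 2 and 2, beside 23.4% and 11.8% of all genes. Slc2a1, the glucose transporter GLUT1, which is also a barrier gene of retinal endothelium, rose from 1299 ± 48.6 to 3279 ± 666 CPM (log2 fold change 1.34, SE 0.254, edgeR adjusted p = 0.0239). Stc2, a secreted glycoprotein, rose from 2.43 ± 1.28 to 10.2 ± 4.65 CPM (2.07, SE 0.539, edgeR adjusted p = 0.0486). Among those that fell, Kdm3a, a histone H3K9 demethylase, went from 144 ± 13.2 to 58.0 ± 17.6 CPM (−1.31, SE 0.280, edgeR adjusted p = 0.0302), and Narf from 157 ± 12.1 to 71.9 ± 13.6 CPM (−1.13, SE 0.242, edgeR adjusted p = 0.0305). With libraries scaled to equal endothelial markers, Slc2a1 was at 0.14 and Stc2 at 0.95 and neither passed (edgeR adjusted p = 0.801 and 0.164, in ranges of 5.16e-05 to 0.801 and 0.00192 to 0.164, each lowest by DESeq2, over 14 alternatives of all tools), while Kdm3a was at −2.54 and Narf at −2.32. Slc2a1, Stc2, Kdm3a and Narf all lost the call without Ctrl 1, Ctrl 2, Ctrl 3 or KO 2, and Stc2, Kdm3a and Narf also without KO 3 (log2 fold changes 1.22 to 1.56, 1.66 to 2.54, −1.50 to −1.09 and −1.18 to −0.91 over the 6 libraries left out). The fits without Ctrl 1, Ctrl 2, Ctrl 3 or KO 2 called 0 genes of any kind, so those losses are not particular to these genes. Stc2 also lost its call with no filter on low counts (edgeR adjusted p = 0.0528). Gapdh, Pgk1 and Pgam1 have many near-identical copies in the genome, and their counts are uncertain.

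**Figure D5:**
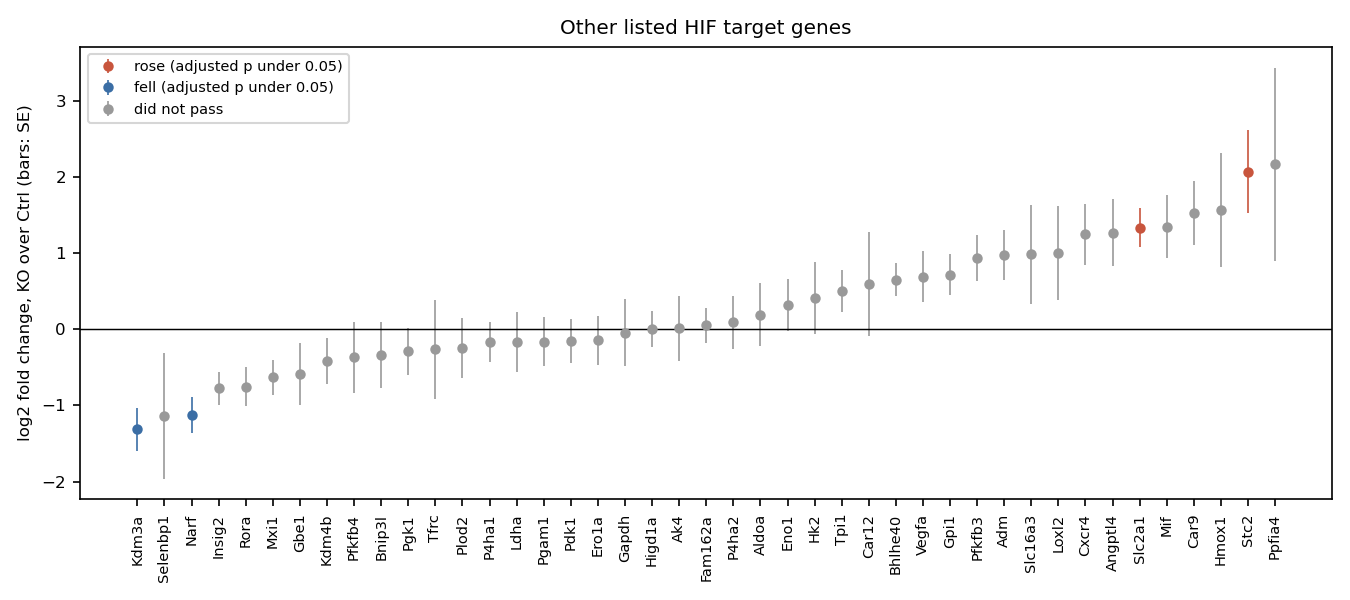
Log2 fold change (KO over Ctrl) and SE (vertical axis) for the 43 tested HIF target genes outside the 10 members, in ascending order. Red points rose, blue points fell and grey points missed the threshold of edgeR's F-test. The 4 called genes are Slc2a1 and Stc2 above 0 and Kdm3a and Narf below it, and the median of the 43 is 0.05.

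Genes of the pathways of Bnip3 and Ddit4 were also followed. Over all tested genes, 10.3% passed edgeR's test and 30.5% had an unadjusted p below 0.05, while DESeq2 called 23.4% and limma-voom 11.8%. Of the 6 mitophagy genes reported here besides Bnip3, 0 passed edgeR's test (1 higher and 1 lower at an unadjusted p below 0.05, 1 and 0 by DESeq2, 0 and 0 by limma-voom). Pink1, a kinase that builds up on damaged mitochondria, was at 400 ± 130 and 348 ± 128 CPM in Ctrl and KO (log2 fold change −0.20, edgeR adjusted p = 0.744). Phb2, a prohibitin of the inner mitochondrial membrane, was at 229 ± 47.1 and 311 ± 82.1 CPM (0.44, edgeR adjusted p = 0.341), and at −0.77 with libraries scaled to equal endothelial markers (edgeR adjusted p = 0.209, range 0.0609 to 0.663 over 14 alternatives of all tools). Of 7 mTORC1 stress inhibitors besides Ddit4, 0 passed edgeR's test (0 higher and 2 lower at an unadjusted p below 0.05, 0 and 1 by DESeq2, 0 and 0 by limma-voom). Sesn1, a sestrin, was at 143 ± 33.0 CPM in Ctrl against 78.4 ± 9.45 CPM in KO (−0.86, edgeR adjusted p = 0.0658), and passed by DESeq2, with GC offsets, without KO 1 and with libraries scaled to equal endothelial markers (adjusted p = 0.0264, 0.0454, 0.0308 and 0.00554, range 0.00554 to 0.202 over 14 alternatives of all tools). Tsc2, a brake on mTORC1 whose gene overlaps Pkd1, was at 61.4 ± 6.28 and 59.2 ± 20.6 CPM (−0.05, edgeR adjusted p = 0.920).

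Likeness of pattern was described by Pearson's r of log2 CPM over the 6 libraries, which share groups and cell makeup, among 12352 genes with a mean of at least 5 CPM. Closest to Hif1a were Krr1 (r = 0.998), Rsrc1 (r = 0.998) and Ado (r = 0.998), and 599 genes had an r above 0.95. Closest to Epas1 were Anxa4 (r = 0.992), Ripk3 (r = 0.991) and Insl3 (r = 0.990), with 195 genes above 0.95. The targeted gene Rnf20 was lower in each KO library, at 53.9 ± 5.18 CPM in Ctrl against 33.9 ± 4.48 CPM in KO (log2 fold change −0.67, edgeR adjusted p = 0.101), and did not pass. It passed without KO 1 (−0.71, edgeR adjusted p = 0.0373) and with libraries scaled to equal endothelial markers (−1.86, edgeR adjusted p = 0.00471, range 0.00471 to 0.309 over 14 alternatives of all tools).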

How the data were processed

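Polyadenylated RNA of CD31-sorted retinal cells was amplified from very low input and sequenced as single reads of 50 bases without strand marking, per the labels' protocols. Per the submitters' processing notes, mm10 was the build, and Trimmomatic 0.36, STAR, deepTools, edgeR and DESeq2 were used. Which tool counted reads, and on which annotation release, is not stated in these sources. Per the file headers, the authors deposited raw counts for 34035 RefSeq transcript entries, normalized counts (a signal equal to the count divided by 1 size factor per library), RPKM, a log2 fold change, its standard error and Wald statistic (a score), p-values and adjusted p-values. RPKM was not used, since the deposited length is the genomic span including introns. One Ctrl count column has a name unlike its replicate number and was taken as Ctrl 3, because its name shows the Ctrl group and the other Ctrl columns are named for replicates 1 and 2. Its ratio to the normalized counts of Ctrl 3, checked afterwards, is 1 constant.

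KO was compared with Ctrl by edgeR 4.0.16 (R 4.3.3; glmQLFit and glmQLFTest, TMM, filterByExpr, no covariate, two-sided, Benjamini-Hochberg adjustment over 16217 genes, threshold 0.05). The standard error is the size of the log2 fold change divided by the square root of F. Levels are mean ± SD of CPM over 3 libraries, each from 1 pup. Log2 levels of markers used a prior count of 2. Exact permutation tests were two-sided, and 0.1 is the smallest p that 3 against 3 allows. Alternatives were DESeq2 1.42.0, limma-voom (limma 3.58.1), DESeq2-type (RLE) scaling, no filter, another transcript entry, scaling to equal endothelial markers, offsets for transcript GC content (from GENCODE M21 transcripts, known for 97.4% of genes), the replicate number as a block and leaving out each library. The edgeR part of the script was tested on simulated counts drawn with the same scatter for every gene. Such counts lack the uneven spread of these libraries, so the test checks the code and not the error rate here. Summaries and plots used Python 3.11.15, pandas 2.3.3, numpy 2.4.6 and matplotlib 3.10.9.

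The members, lists and tests were chosen with earlier results of these data known. All 10 members were named. Of each further list at most 4 genes past the threshold with the smallest adjusted p were named, and where fewer than 2 passed, the most abundant to make up 2, with the EGLN, NDRG and HIF alpha families complete. For Hif1a and Epas1, the 3 genes with the highest correlation were added. Gapdh, Pgk1 and Pgam1 were named outside this rule. A total of 2 listed genes are not reported here and were left out of their lists' counts. Coordinates are the gene spans of RefSeq on GRCm38.p6, 1-based.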

Additional observations from a re-analysis of the deposited data

How the results depend on the processing

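With libraries scaled to equal endothelial markers the median of all genes moved from 0.03 to −1.18, and 6837 genes passed (1.11% of them higher), against 1668 (56.8% higher). On that scale, the log2 fold changes were −0.33 for Epas1, −0.87 for Egln1, −0.28 for Egln3, −1.05 for Ankrd37, −0.29 for Ddit4, −0.36 for Egln2, −0.97 for Ndrg2 and −0.77 for Phb2, all turned in sign, none past the threshold and all less negative than that median. Arnt (−1.48), Vhl (−1.62), Bnip3 (−2.16) and Ndrg1 (−2.16) passed. So did 8 of 17 oxygen-sensing genes and 19 of 43 listed targets, shares near that of all genes on this scale (6837 of 16217). Under TMM scaling 2 and 4 passed, beside 1668 of all genes. DESeq2 called 3565 genes, 12 listed targets, Epas1 (0.90), Bnip3 (−0.91) and Ddit4 (0.93). With GC offsets 7 listed targets passed, beside 1957 of all 16217 genes. The cause of these changes was not tested.

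Leaving out 1 library gave 0 to 4927 genes, 0 to 6 oxygen-sensing genes and 0 to 17 listed targets. The 0 genes by edgeR without Ctrl 1, Ctrl 2, Ctrl 3 or KO 2 stood beside 4005, 3434, 3479 and 3576 at an unadjusted p below 0.05, from fits with fewer libraries (with all 6, DESeq2 called 3565 and limma-voom 1910). Without KO 3 there were 866 genes. Without KO 1 there were 4927, and Bnip3 and Ddit4 passed. The range over libraries left out was −2.01 to −1.47 for Hif1a, 0.69 to 1.10 for Epas1, −0.98 to −0.84 for Bnip3, 0.75 to 1.13 for Ddit4, −0.35 to 0.14 for Pink1 and −0.34 to 0.20 for Tsc2. Pink1 turned without Ctrl 1 (0.10) and KO 1 (0.14), and Tsc2 without Ctrl 1 (0.02), KO 1 (0.20) and KO 3 (0.10). The Epas1 to Hif1a ratio changed by 2.22 to 2.82 log2 units over its 8 alternatives. These were another transcript entry, the replicate block and leaving out each library. GC offsets were not applied to the ratio. With GC offsets the separate log2 fold changes were nearer to 0, at −1.09 for Hif1a (−1.66 without) and 0.71 for Epas1 (0.86 without).

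The labels do not say whether the replicate numbers pair the pups. Deviations of same-numbered libraries from their group means correlated at −0.39, 0.07 and −0.26 across genes. Those of differently numbered libraries lay between −0.33 and 0.41, so these correlations cannot settle the pairing. With the replicate block edgeR called 1 gene, 0 oxygen-sensing genes and 0 listed targets (3407 genes at an unadjusted p below 0.05), and Hif1a was at −1.72 (adjusted p = 0.145, range 0.000647 to 0.145 over 14 alternatives of all tools).

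The alternatives not named here left the members' direction and side of the threshold as reported. Egln3 had the fewest reads of the members, 44 to 256 counts per library.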
